A study of Macaca mulatta with 24 samples.

Results

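A set of 10 transcription factor genes of striatal neurons, FOXP1, FOXP2, BCL11B, MEIS2, ISL1, EBF1, SP9, RARB, RXRG and ZFHX3, were followed through RNA-Seq of the nucleus accumbens (NAcc) core of 24 rhesus macaques. The rows were matched by gene symbol alone, and all 10 symbols were found among the 17208 listed. The set itself was chosen with earlier results of these data known. The animals were unrelated adult males that obtained every fluid and meal from drinking panels. Of these, 16 animals were induced to drink over 4 months and then had 12 months of free choice between water and 4% (w/v) ethanol for 22 h per day. The labels class 8 of them as LD (0.47 to 2.07 g/kg ethanol daily), 4 as heavy drinkers (HD, 2.74 to 3.09 g/kg) and 4 as very heavy drinkers (VHD, 3.09 to 3.78 g/kg). In the paper the group of 8 LD animals joins low and binge drinkers. HD and VHD animals together form the HD* group of 8. The 8 controls lived in the same rooms under the same routine, had water on both spouts and received a 10% maltose dextrin solution for calories. Tissue was taken without a period of abstinence and cut out of a coronal block by visible landmarks and each animal's own brain scan, so a sample is a mixture of cell types. Induction and housing were common to all groups, and the maltose dextrin solution was given to controls only. Each animal gave 1 library, and animals are named by group and a running number.

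Most neurons of the NAcc core are GABAergic projection neurons, of a direct-pathway class with dopamine D1 receptors and an indirect-pathway class with dopamine D2 receptors. A network of transcription factors sets up and maintains these cells, and several of its members stay switched on in the adult. FOXP1 and FOXP2 are forkhead repressors, BCL11B (also called CTIP2) is a zinc finger factor needed for projection neurons to mature, and MEIS2 is a homeodomain factor of the ventral forebrain. ISL1 is a LIM homeodomain factor of early direct-pathway neurons that adult cholinergic interneurons keep. EBF1 takes part in the differentiation of direct-pathway neurons and SP9 in that of indirect-pathway neurons. RARB and RXRG are retinoid receptors that pair on DNA, and both are rich in the striatum. ZFHX3 is a large zinc finger and homeobox factor of maturing neurons.

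Values are transcripts per 1000000 (TPM), a share of each library's total, so depth is unknown and a rise of some genes lowers the rest. Differences are given on the log2(TPM + 1) scale, on which changes of low genes come out too small. All 10 genes were among the 13637 that averaged 1 TPM or more. These were tested with limma and called at a Benjamini-Hochberg adjusted p under 0.05. Its p-values set a difference or slope against the spread between these animals, which limma moderates with that of all genes. The level of striatal markers was followed with a striatal marker score, the mean centred log2(TPM + 1) of 21 projection neuron markers (PPP1R1B, DRD1, DRD2, ADORA2A, PENK and 16 others) that hold none of the 10 genes. PPP1R1B, which encodes DARPP-32, ranged from 304 to 3926 TPM and DRD1 from 8.14 to 274 TPM, so markers of the labelled tissue were present at unequal levels. In bulk tissue, fewer cells of a type and less RNA per cell cannot be told apart. Libraries of 3 animals lay more than 1 log2 unit below the median score of 0.23, namely control 6 (−3.24), control 8 (−1.13) and VHD 2 (−0.82), while LD 4 (−0.69) lay just inside. LD 4 also carried the most SLC17A7, a cortical glutamate transporter gene, at 722 TPM against a median of 3.87 TPM. It was not alone in this. The summed level of 7 cortical excitatory markers was 915 TPM in LD 4, 447 TPM in control 2, 272 TPM in LD 2 and 264 TPM in HD 4. It was 7.29 TPM in HD 3, the lowest animal, and 8.48 to 30.4 TPM in VHD animals. The 3 animals of low score are also called animals of low striatal content, a name that refers to the score alone. Group differences, slopes and spans are also given without these 3 animals.

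MEIS2 was the most abundant of the 10 genes, with a mean of 177 TPM over the 24 animals. RXRG followed at 130.3 TPM, RARB at 70.2 TPM, BCL11B at 39.4 TPM and FOXP1 at 28.0 TPM. SP9 averaged 16.6 TPM, ISL1 8.58 TPM and FOXP2 7.21 TPM, and ZFHX3 (3.63 TPM) and EBF1 (2.75 TPM) were the weakest. Within an animal, BCL11B exceeded FOXP1 in 24 of 24 animals, and the steps from RXRG to RARB, RARB to BCL11B, SP9 to ISL1 and FOXP2 to ZFHX3 held in 23. MEIS2 exceeded RXRG in 20 of 24 animals with a log2 ratio of 0.43 ± 0.60 (SD), and ISL1 exceeded FOXP2 in 17 with a log2 ratio of 0.28 ± 0.51. For both pairs of neighbours the mean log2 ratio was smaller than its SD between animals, and the order was not the same in every animal. That was also so for ZFHX3 and EBF1 (0.53 ± 0.57, where ZFHX3 was higher in 19) and for FOXP1 and SP9 (0.59 ± 0.60, where FOXP1 was higher in 20). This SD does not tell whether a mean ratio differs from 0, which was not tested.

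The 10 genes varied among animals to very different degrees. RARB spanned 25.9-fold, from 4.58 TPM in control 6 to 119 TPM in LD 8, FOXP1 11.3-fold and BCL11B 9.87-fold. These spans rested on control 6, without which they were 4.60-fold for RARB, 6.06-fold for FOXP1 and 3.72-fold for BCL11B, and without all 3 low animals 3.59-fold, 4.05-fold and 2.75-fold. ZFHX3 spanned 2.43-fold and SP9 2.96-fold. The SD of log2(TPM + 1) was 0.97 for RARB, 0.86 for FOXP1, 0.74 for BCL11B and 0.71 for MEIS2, which placed these genes at or above the 95.4th percentile of all genes tested, whose median SD was 0.32. ZFHX3, with an SD of 0.27, was at the 31.8th percentile. With those 3 animals left out the SD was 0.58 for RARB, 0.66 for FOXP1, 0.50 for BCL11B and 0.57 for MEIS2, at the 89.0th to 96.4th percentile.

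**Figure D1:**
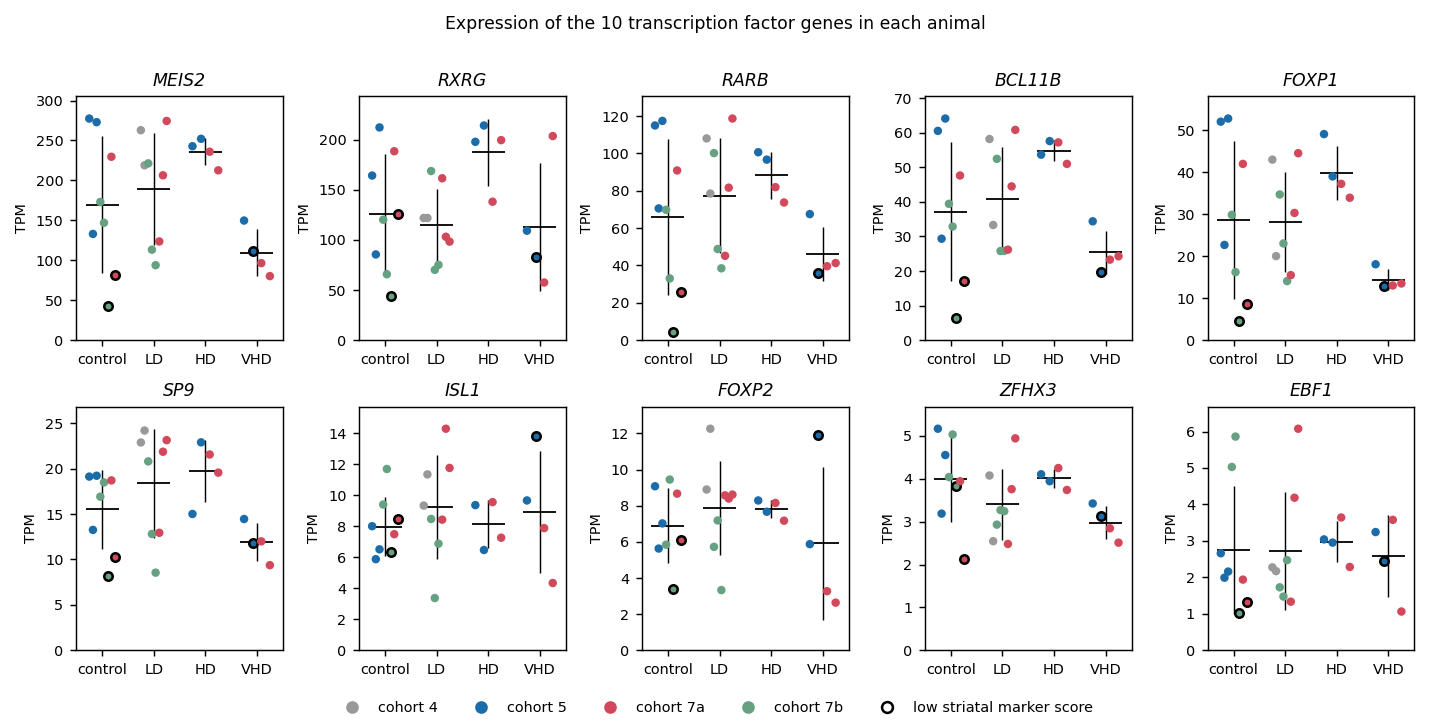
Expression (TPM, linear axis from 0) of each of the 10 genes in each of the 24 animals, by label (8 controls, 8 LD, 4 HD and 4 VHD animals). Points are animals coloured by cohort, horizontal lines are means, vertical lines are ± 1 SD (cut at 0) and black rims mark the 3 animals of low striatal marker score. Control 6 is the lowest point for 7 genes, and in FOXP1, BCL11B, MEIS2 and RARB every VHD point lies below every HD point.

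No difference between drinking groups and controls was detected for these genes. Between HD* animals and controls 0 of the 10 genes were called, as were 0 of 13637 genes overall (0.0%), while 775 of all genes (5.68%) and 0 of the 10 had an unadjusted p under 0.05. The paper tested this contrast with DESeq2 on read counts and reported differentially expressed genes. The 0 given here is that of limma on log2(TPM + 1), and the reason for the difference was not tested. RARB had the largest positive difference. It was 4.58 to 117 TPM (median 70.2) in controls, 38.5 to 119 TPM (median 80.1) in LD animals and 36.2 to 101 TPM (median 70.6) in HD* animals, so the groups overlapped. Its log2 difference between HD* animals and controls was 0.38 (SE 0.46, adjusted p = 0.761). FOXP1 was 4.66 to 52.8 TPM (median 26.3) in controls, 14.1 to 44.6 TPM (median 26.7) in LD animals and 12.9 to 49.1 TPM (median 26.0) in HD* animals, a log2 difference of 0.10 (SE 0.41, adjusted p = 0.930). ZFHX3 had the most negative difference, −0.13 (SE 0.14, adjusted p = 0.734), and its medians were 3.99 TPM for controls against 3.58 TPM for HD*.

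The signs of these differences followed a few animals. Of the 10 genes, 8 lay above 0 and 2 below, against a median of −0.12 over all genes, which moved to 0.00 once libraries had been rescaled with TMM (trimmed means of log ratios). Without control 6, control 8 and VHD 2, 1 of the 10 lay above 0 and 9 below, from −0.33 for FOXP1 to 0.20 for RXRG, and with the striatal marker score in the model 3 lay above 0 and 7 below. In the 2 cohorts that hold both groups, 2 lay above 0 and 8 below. No gene was called in any of these. The score itself averaged −0.27 ± 1.42 in controls and 0.15 ± 0.65 in HD* animals (SD, n = 8 each), a difference of 0.42 (two-sided exact permutation test over 12870 assignments, p = 0.513) that turned to −0.01 without control 6.

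Nor was any of the 10 genes called in the other comparisons of drinking groups. For LD animals against controls 0 of the 10 genes and 0 of 13637 (0.0%) were called, with log2 differences from −0.17 (ZFHX3) to 0.57 (RARB, SE 0.46), and 387 of all genes (2.84%) and 0 of the 10 had an unadjusted p under 0.05. Without the 3 low animals these ran from −0.33 (FOXP1) to 0.11 (ISL1). RARB was at 0.83 (SE 0.47, adjusted p = 0.999) with cohort in the model and at 1.00 (SE 0.59, adjusted p = 0.994) in cohorts 7a and 7b alone. For HD* against LD animals, again 0 of the 10 and 0 of 13637 (0.0%) were called, with differences from −0.21 (FOXP2) to 0.31 (RXRG) and 147 of all genes (1.08%) and 0 of the 10 at an unadjusted p under 0.05. Without the 3 low animals the HD* against LD differences ran from −0.33 (FOXP2) to 0.42 (RXRG), with cohort in the model from −0.86 (RARB, SE 0.51) to 0.05 (EBF1), and in cohort 7a alone from −0.71 (FOXP2, SE 0.34) to 0.19 (RXRG), with 0 of the 10 called in each. The LD and HD* comparisons share the same 8 controls.

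**Figure D2:**
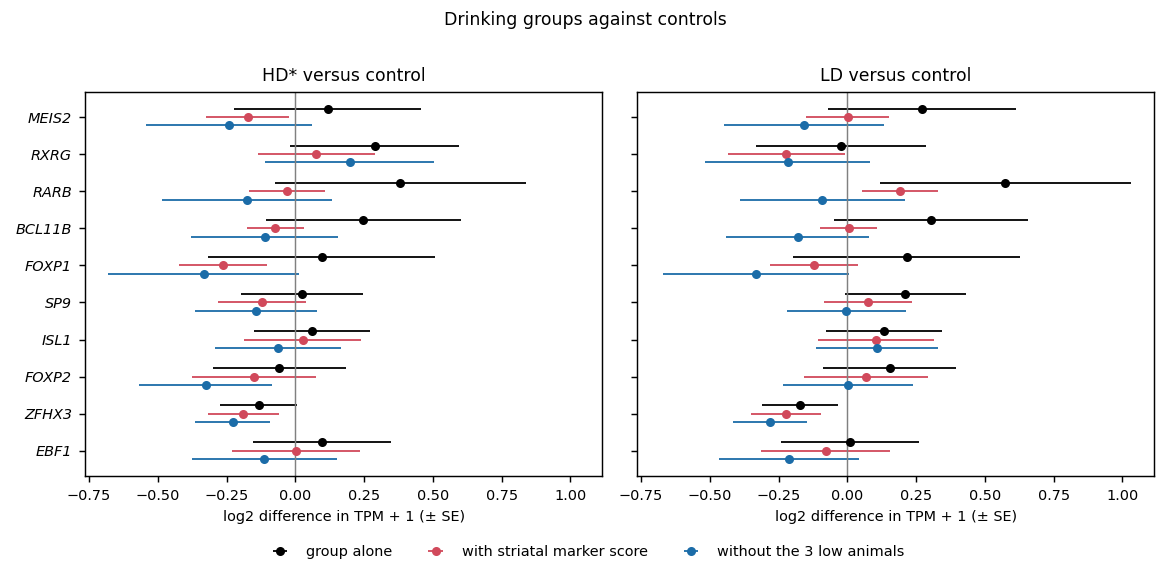
Log2 differences in TPM + 1 (± SE from limma, horizontal axis) of the 10 genes for HD* animals against controls (left) and LD animals against controls (right). Black points come from the groups alone, red points from a fit with the striatal marker score and blue points from a fit without the 3 animals of low score. With the groups alone 8 genes lie to the right of 0 in each panel, and most of them shift to the left in both other fits.

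The 10 genes followed the level of striatal markers to different degrees. Across the 24 animals, with drinking group in the model, 6 of the 10 rose with the striatal marker score and none fell. The background was high, since 5750 of 13637 genes (42.2%) had a slope that was called, 3232 of them positive (23.7%) and 2518 negative (18.5%). At an unadjusted p under 0.05, 9 of the 10 and 51.0% of all genes had a slope. The slopes of the 6 genes, in log2 units per log2 unit of score, were 0.99 for RARB (SE 0.062, adjusted p = 5.4e-12), 0.87 for FOXP1 (SE 0.072, adjusted p = 9.03e-10), 0.77 for BCL11B (SE 0.046, adjusted p = 2.67e-12) and 0.70 for MEIS2 (SE 0.068, adjusted p = 1.61e-08). RXRG (0.51, SE 0.095, adjusted p = 0.000168) and SP9 (0.35, SE 0.072, adjusted p = 0.000425) rose less steeply. The median slope of all genes was 0.02, and RARB stood at the 99.7th, FOXP1 at the 99.5th and SP9 at the 93.1st percentile.

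FOXP2, EBF1, ZFHX3 and ISL1 were not called. Their slopes were 0.22 (SE 0.10, adjusted p = 0.0778), 0.23 (SE 0.10, adjusted p = 0.0809), 0.13 (SE 0.058, adjusted p = 0.0623) and 0.08 (SE 0.095, adjusted p = 0.509). The line between called and not called was not sharp, since 8 of the 10 were called after TMM rescaling, FOXP2 (0.21, adjusted p = 0.0384) and ZFHX3 (0.12, adjusted p = 0.0447) among them, and 6 to 8 when 1 animal was left out. Without the 3 low animals the 6 called genes were called again, with slopes from 0.46 (SP9) to 1.06 (FOXP1), and ZFHX3 joined them (0.24, adjusted p = 0.031). Within the 8 controls alone, 6 of the 10 were called, beside 3307 of 13637 genes. When 1 animal was left out, 4962 to 6753 of all genes were called, against 5750 (42.2%) in the main fit. For the other fits of this paragraph the share of all genes is not given here. With the ribosomal protein share of the library, which ran from 7.66% to 18.2%, as a second covariate, chosen after the data were seen, again 6 were called, FOXP1 with 0.74 and RARB with 0.96. ISL1 turned to −0.02 when libraries were weighted by their quality.

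**Figure D3:**
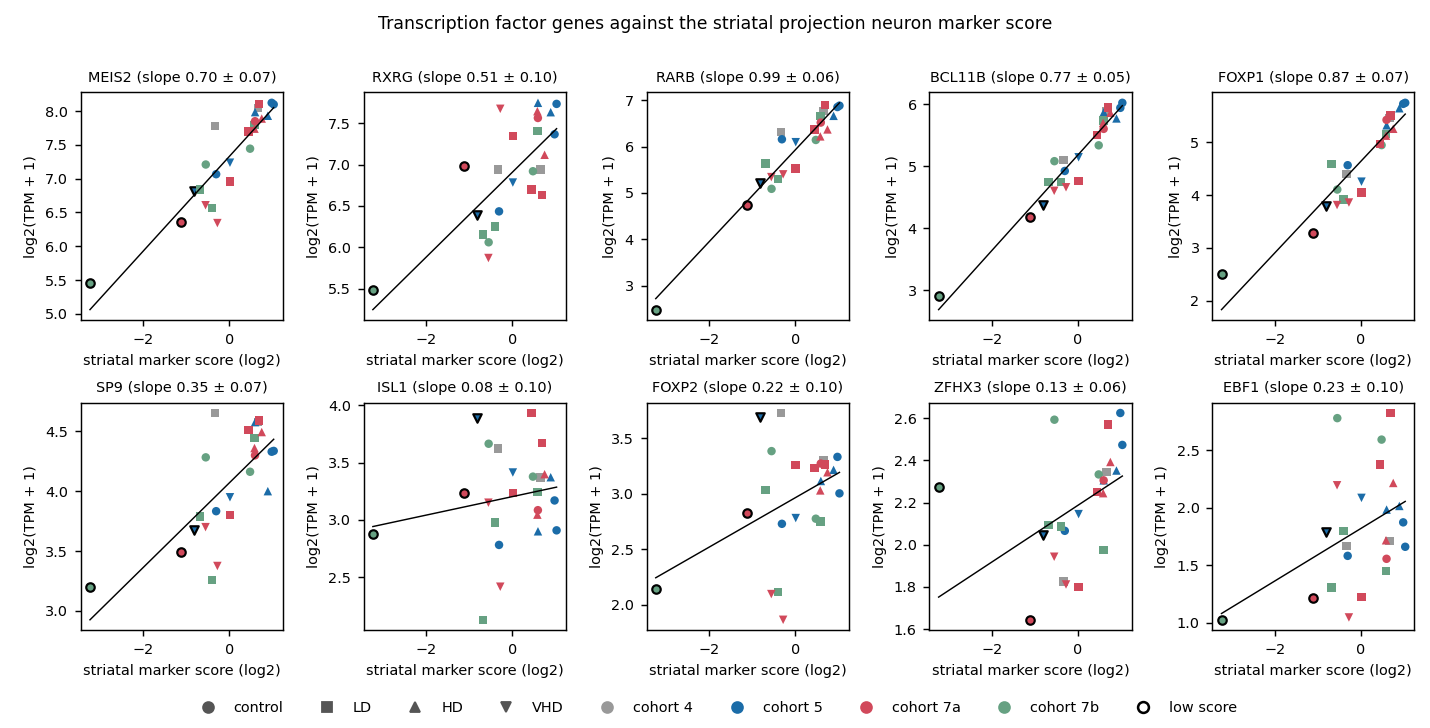
Log2(TPM + 1) of each of the 10 genes (vertical axes, scaled per gene) against the striatal marker score (horizontal axes, log2 units), 1 point per animal. Shapes give the group, colours the cohort and black rims the 3 animals of low score. The line has the slope printed above each panel (± SE, adjusted for group) and passes through the overall mean. RARB, FOXP1, BCL11B and MEIS2 lie close to their lines down to control 6 at a score of −3.24, and ISL1 shows little relation with the score.

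The 3 animals of low striatal content were not evenly low in these genes. Control 6 had 304 TPM of PPP1R1B, the fewest of all, and was the lowest of 24 animals for FOXP1 (4.66 TPM), BCL11B (6.50 TPM), MEIS2 (43.1 TPM), EBF1 (1.04 TPM), SP9 (8.17 TPM), RARB (4.58 TPM) and RXRG (43.7 TPM). RARB was at 6.35% of the median animal there, BCL11B at 17.6%, MEIS2 at 22.7% and SP9 at 46.2%. ZFHX3, at 3.84 TPM, was at 102% of the median, and ISL1, at 6.36 TPM, at 75.4%. The same library had the highest oligodendrocyte marker score (1.63).

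Control 8 was the second lowest for FOXP1 (8.72 TPM, 32.9% of the median), BCL11B (17.2 TPM) and RARB (25.8 TPM). Its RXRG was at 126 TPM, 103% of the median, and its ISL1 at 8.44 TPM, 100.1%, so that the retinoid receptors RARB and RXRG parted in this animal. It was the lowest of 24 for ZFHX3 (2.13 TPM). VHD 2 was low in FOXP1 (12.9 TPM, 48.8% of the median), BCL11B (19.7 TPM, 53.3%) and RARB (36.2 TPM, 50.2%). In the same animal ISL1 (13.8 TPM, 164%) and FOXP2 (11.9 TPM, 161%) were each the second highest of 24.

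VHD animals had lower levels than HD animals of FOXP1, MEIS2, BCL11B, RARB and SP9, which are 5 of the 6 genes that rose with the striatal score, while RXRG, the other one, was not called. All 4 VHD animals lay below all 4 HD animals for 6 of the 10 genes, FOXP1, BCL11B, MEIS2, RARB, SP9 and ZFHX3, an ordering seen in 17.9% of all genes tested, and above them for 0 of the 10 (5.39% of all genes). FOXP1 was 49.1, 39.0, 37.3 and 34.0 TPM in HD animals and 18.1, 12.9, 13.0 and 13.5 TPM in VHD animals, so the groups did not overlap and VHD 1 was the highest of its group. MEIS2 was 243, 252, 236 and 213 TPM in HD animals and 149.8, 111, 96.5 and 80.2 TPM in VHD animals. BCL11B was 53.7, 57.6, 57.2 and 51.0 TPM in HD animals and 34.4, 19.7, 23.3 and 24.3 TPM in VHD animals. Both fell in every VHD animal of either cohort below every HD animal.

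The retinoid receptors differed from each other. RARB was 101, 96.7, 81.9 and 73.7 TPM in HD animals and 67.5, 36.2, 39.6 and 41.3 TPM in VHD animals. RXRG was 198, 214, 138 and 199 TPM in HD animals and 109, 82.6, 57.5 and 203 TPM in VHD animals. The groups were apart for RARB and overlapped for RXRG, where VHD 4 reached the HD level. SP9 was 15.0, 22.9, 21.6 and 19.6 TPM in HD animals and 14.5, 11.8, 12.0 and 9.37 TPM in VHD animals, with a narrow gap between HD 1 and VHD 1.

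In limma 5 of the 10 genes were lower in VHD animals and 0 higher, where 1997 of 13637 genes were called (14.6%), 1556 lower (11.4%) and 441 higher (3.23%). At an unadjusted p under 0.05 there were 6 of the 10 and 32.7% of all genes. The log2 differences, VHD minus HD, were −1.41 for FOXP1 (SE 0.18, adjusted p = 0.00363), −1.14 for MEIS2 (SE 0.18, adjusted p = 0.00489), −1.11 for BCL11B (SE 0.17, adjusted p = 0.00493), −0.95 for RARB (SE 0.20, adjusted p = 0.0115) and −0.68 for SP9 (SE 0.20, adjusted p = 0.0382). RXRG had −0.86 (SE 0.31, adjusted p = 0.0775), FOXP2 −0.53, ZFHX3 −0.34, EBF1 −0.20 and ISL1 0.04, none of them called. At an adjusted p under 0.001, 0 genes of the whole table were called. The median over all genes was −0.17, and −0.02 after TMM rescaling, with which 9 of the 10 genes again lay below 0 and SP9 was no longer called (−0.52, adjusted p = 0.0519). The call of SP9 was also lost without HD 2, HD 3, HD 4, VHD 3 or VHD 4, and that of RARB without VHD 3 (−0.90, adjusted p = 0.0523), while FOXP1, MEIS2 and BCL11B were called without any of the 8 animals in turn. Without VHD 3 the calls over all genes went from 1997 to 476, and without VHD 2 to 4651, with FOXP2 then called as well (−0.89, adjusted p = 0.012).

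The striatal markers moved with this contrast. The striatal marker score was −0.82 to 0.01 in VHD animals and 0.58 to 0.89 in HD animals, a difference of −1.12 (two-sided exact permutation test over 70 assignments, p = 0.0286, the smallest such a test can give). The summed level of the 21 markers was 5380 to 10720 TPM in VHD animals and 14507 to 17040 TPM in HD animals, and no marker was at 0. With the score in the model 0 of the 10 genes and 0 of 13637 were called, with 1383 genes at an unadjusted p under 0.05. FOXP1 then had −0.71 (SE 0.42), RARB 0.11 (SE 0.39) and BCL11B −0.27 (SE 0.38), SP9 was at −0.72 (SE 0.52), and FOXP2 had the most negative value at −1.43 (SE 0.85). Since the scores of the groups do not overlap, group and striatal marker score cannot be told apart in these 8 animals. The ribosomal protein share of the library also separated the groups, with 10.7% to 18.2% in VHD and 7.76% to 8.96% in HD animals, as did the summed level of 8 microglial markers, 437 to 746 TPM in VHD and 335 to 429 TPM in HD animals, and of 8 astrocyte markers, 4921 to 7817 TPM in VHD and 2187 to 3858 TPM in HD animals. Of the single markers, 4 of 8 microglial and 2 of 8 astrocyte genes were called, all higher in VHD animals, against 19 of 21 striatal genes, all lower. General neuronal markers were lower too, with 4 of 8 called, a median of −0.71 and scores of −0.79 to 0.15 in VHD and 0.17 to 0.28 in HD animals. Their part in the result was not tested.

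**Figure D4:**
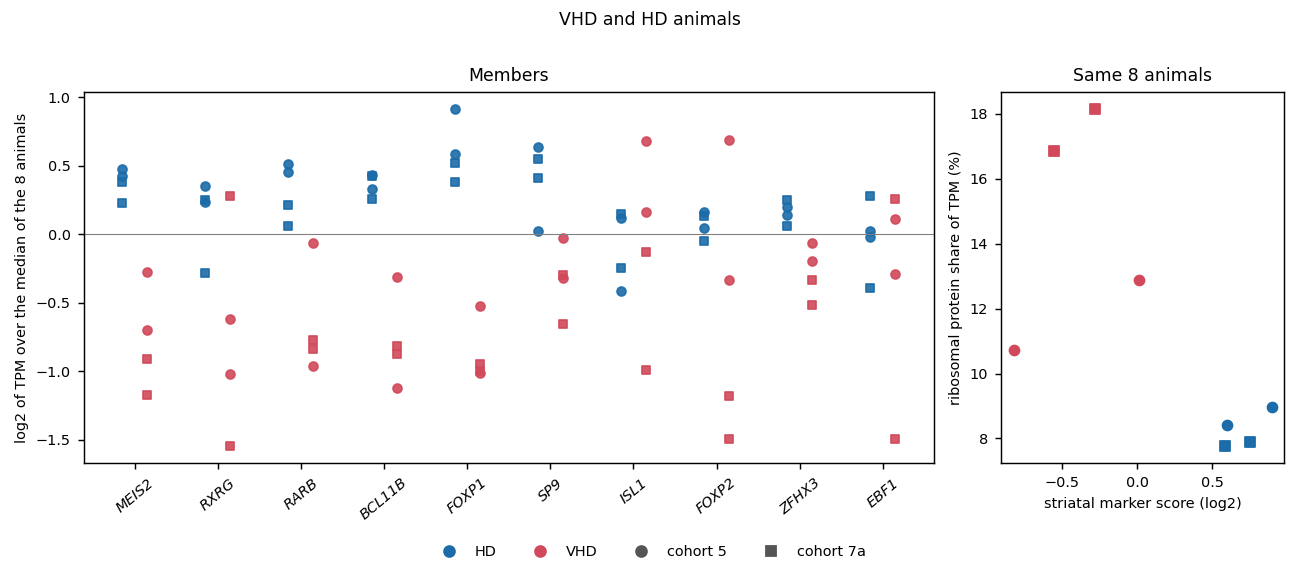
Left, log2 of TPM over the median of the 8 HD* animals for each of the 10 genes, HD animals in blue and VHD animals in red, circles for cohort 5 and squares for cohort 7a. Right, the ribosomal protein share of the library (percent of TPM) against the striatal marker score in the same animals. FOXP1, BCL11B, MEIS2, RARB, SP9 and ZFHX3 show no overlap of the groups, while FOXP2, RXRG, ISL1 and EBF1 overlap. The groups are apart on both axes of the right panel.

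ISL1 had the smallest slope of the 10 genes on the striatal marker score over the 24 animals, although EBF1 had the smallest without the 3 low animals (0.11) and ZFHX3 with the cholinergic score in the model (0.17). It ranged from 3.37 TPM in LD 4 to 14.3 TPM in LD 7. In controls it was 5.88 to 11.7 TPM (median 7.74) and in LD animals 3.37 to 14.3 TPM (median 8.90). HD animals had 9.36, 6.47, 9.55 and 7.26 TPM and VHD animals 9.66, 13.8, 7.88 and 4.34 TPM, so that VHD animals held values on both sides of the HD range.

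A score of 6 cholinergic interneuron markers (among them CHAT, SLC5A7, SLC18A3 and LHX8) was examined for ISL1 after its values had been seen. CHAT, the acetylcholine synthesis enzyme, was 1.81 to 19.8 TPM over the 24 animals. The 3 animals of low striatal content had the highest cholinergic scores, 2.07 in control 6, 1.42 in VHD 2 and 1.18 in control 8, and the summed level of the 6 markers was 18.5 to 187 TPM in controls, 15.4 to 64.9 TPM in LD animals and 11.7 to 112 TPM in HD* animals, with none at 0. With drinking group and striatal score in the model, ISL1 rose by 0.45 per unit of cholinergic score (SE 0.097, adjusted p = 0.0253) and was the only member called, where 170 of 13637 genes had a slope that was called (1.25%), 141 of them positive (1.03%) and 29 negative (0.213%). At an unadjusted p under 0.05 there were 3 of the 10 (ISL1, FOXP2 and MEIS2) and 26.0% of all genes. FOXP2 had 0.37 (SE 0.12, adjusted p = 0.0985), FOXP1 0.04 (SE 0.10) and RARB −0.11 (SE 0.084).

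The slope of ISL1 was 0.35 to 0.50 when 1 animal was left out, but its adjusted p crossed the limit in some of these fits. Without the 3 low animals it was 0.65 (adjusted p = 0.0399). The smallest adjusted p among the 10 genes in that fit was 0.0397, so ISL1 was not the only member called there. The call was lost without LD 7 (0.42, adjusted p = 0.0646), without VHD 2 (0.40, adjusted p = 0.0804), without VHD 4 (0.42, adjusted p = 0.131), after TMM rescaling (0.36, adjusted p = 0.0623) and without the striatal score in the model (0.30, adjusted p = 0.121). The slope stayed positive in all of them. Over all genes the number called moved from 170 to 27 without VHD 4, to 2444 without control 8 and to 2815 without LD 4. With the cholinergic score as a second covariate, all 10 genes had a slope on the striatal score that was called, ISL1 with 0.25 (adjusted p = 0.013) and FOXP2 with 0.36 (adjusted p = 0.0046). Many other genes have such a slope, 42.2% of all genes in the fit without the cholinergic score. The share of all genes in the fit with it is not given here, so the count of 10 cannot be set against its background.

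**Figure D5:**
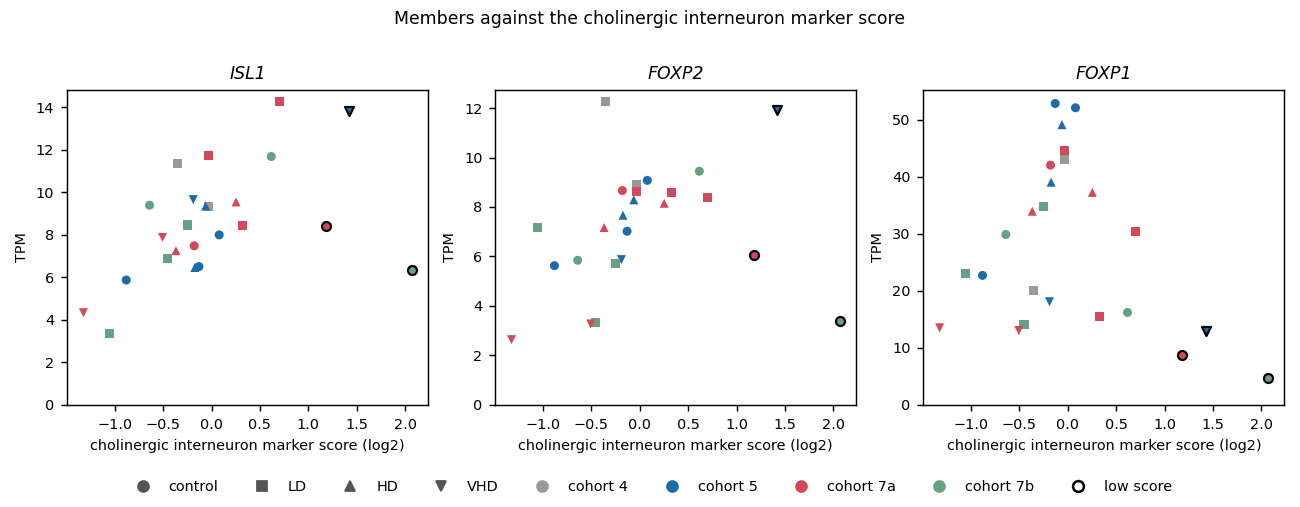
TPM of ISL1, FOXP2 and FOXP1 (vertical axes from 0) against the cholinergic interneuron marker score (log2 units), 1 point per animal, with shapes for group, colours for cohort and black rims for the 3 animals of low striatal content. ISL1 runs from 3.37 TPM in LD 4 to 14.3 TPM in LD 7 with VHD 2 at 13.8 TPM, and FOXP1 is low in the 3 rimmed animals at the right.

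Daily ethanol intake among the 16 drinkers gave no call. The slopes of the 10 genes ran from −0.23 (MEIS2) to 0.07 (RXRG) log2 units per g/kg, 7 of them below 0, and 0 of 13637 genes (0.0%) were called, with 0 of the 10 and 907 of all genes (6.65%) at an unadjusted p under 0.05. The median slope of all genes was −0.07. With the 3 low animals left out the slopes ran from −0.30 (FOXP2) to 0.13 (RXRG), with 0 called. With cohort in the model all 10 slopes lay below 0, from −0.65 for FOXP2 (SE 0.19, adjusted p = 0.134) to −0.09 for ZFHX3, against a median of −0.18 over all genes, and 4 of the 10 and 4014 of 13637 had an unadjusted p under 0.05, none of them called. Within the LD animals alone 8 of the 10 slopes were below 0 and within the HD* animals alone 10, with 0 called in either.

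Cohorts did not differ in any gene after adjustment (0 of 13637, 0.0%, with 1140 of all, 8.36%, at an unadjusted p under 0.05). RARB was the only 1 of the 10 below that limit (limma F test over 3 cohort terms, unadjusted p = 0.048, adjusted p = 0.540), with means of 93.3 TPM in cohort 4, 86.3 TPM in cohort 5, 66.5 TPM in cohort 7a and 49.1 TPM in cohort 7b, to which control 6 belongs. Cohort 4 held only 2 LD animals. The effect of HD* against controls did not differ detectably between cohorts 5 and 7a for any gene (0 of 13637, 0.0%, with 294 of all, 2.16%, and 0 of the 10 at an unadjusted p under 0.05), and the interaction terms of the 10 genes ran from −0.68 (FOXP2) to 0.75 (FOXP1).

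Relatives of the 10 genes moved in both directions. Of 15 paralogs, 11 had a mean of at least 1 TPM, and ISL2, EBF2, EBF3 and SP8 lay below that. On the striatal marker score 2 of the 11 rose, BCL11A (0.21, SE 0.035) and ZFHX4 (0.29, SE 0.069), and 3 fell, MEIS3 (−0.83, SE 0.13), EBF4 (−0.53, SE 0.058) and RXRA (−0.28, SE 0.040), with a median slope of 0.03 over the 11. These 5 of 11 stand against 42.2% of all genes called (23.7% positive and 18.5% negative), so the share is near the background. MEIS3 and RXRA thus ran opposite to MEIS2 and RXRG, in TMM rescaled values as well, and EBF4 fell where EBF1 (0.23) was not called. MEIS1, RARA, RARG, RXRB, FOXP4 and ZFHX2 were not called, but after TMM rescaling MEIS1 was (−0.11, adjusted p = 0.029). Between VHD and HD animals FOXP4 was lower (−0.50, adjusted p = 0.040) and EBF4 higher (0.85, adjusted p = 0.049), where 14.6% of all genes were called. After TMM rescaling FOXP4 was no longer called (−0.32, adjusted p = 0.199), and EBF4 (1.01, adjusted p = 0.0092), MEIS3 (1.30, adjusted p = 0.025) and RXRA (0.38, adjusted p = 0.046) were higher.

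Of 28 other transcription factors of the striatal lineage, 13 rose and 6 fell with the striatal marker score, with a median of 0.14, beside 23.7% of all genes that rose and 18.5% that fell. After TMM rescaling 13 rose and 9 fell. The immediate early genes EGR3 (0.98, SE 0.053) and EGR1 (0.78, SE 0.10) had the steepest slopes, followed by FOXO1 (0.71, SE 0.086), ZNF503 (0.64, SE 0.069), SIX3 (0.47, SE 0.087) and DLX6 (0.46, SE 0.077). Among those that fell were ZIC1 (−0.47, SE 0.15), LHX8 (−0.45, SE 0.16), DLX1 (−0.41, SE 0.10) and GSX2 (−0.30), and LHX8 is also 1 of the 6 cholinergic markers. Between VHD and HD animals 9 of the 28 were lower and 0 higher, beside 11.4% of all genes lower and 3.23% higher, among them EGR1 (−1.32, adjusted p = 0.009), FOXO1 (−1.26, adjusted p = 0.005) and ZNF503 (−1.16, adjusted p = 0.005). Between HD* animals and controls 0 of the 28, 0 of the 11 paralogs and 0 of 8 retinoid genes were called.

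Genes that handle retinoids, the ligands of RARB and RXRG, were checked from a list of 11, of which ALDH1A2, ALDH1A3 and STRA6 were below 1 TPM. RBP4, a retinol carrier, rose with the striatal marker score (0.30, SE 0.041), as did CRABP1, a retinoic acid binding protein (0.18, SE 0.068), whose call was lost after TMM rescaling (0.16, adjusted p = 0.091). The retinoic acid degrading enzymes CYP26B1 (−0.54, SE 0.083) and CYP26A1 (−0.52, SE 0.14) fell, as did DHRS3 (−0.14, SE 0.050). ALDH1A1 and CRABP2 were not called.

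The genes most alike to each member over the 24 animals were found by Pearson correlation of log2(TPM + 1), given as a description, since the animals share their differences in striatal marker level and control 6 lies far from the rest. For FOXP1 these were PDE7B (r = 0.985), KCNQ5 and PPP3R1, and for BCL11B ACTN2 (r = 0.991), KCNA4 and GPR6. MEIS2 was closest to WASF1 (r = 0.982), CNKSR2 and HMP19, RARB to ARPC2 (r = 0.981), PDYN and GPR6, and SP9 to ARF1 (r = 0.956), SEZ6 and WRNIP1. The best matches of RXRG, TMEM200B (r = 0.884), GPC1 and TLE1, and of ZFHX3, CDK19 (r = 0.878), ZFHX4 and MLL, were looser. FOXP2 was closest to SCRN1 (r = 0.906), EXOSC9 and NR3C2, ISL1 to TBL1X (r = 0.828), RGAG1 and PEG10, and EBF1 to ELOVL3 (r = 0.765), C3orf33 and FBXO4. Without the 3 low animals the first match had r = 0.980 for FOXP1, 0.978 for BCL11B, 0.948 for RARB, 0.818 for ISL1 and 0.799 for EBF1. GPR6 and PDYN are themselves among the 21 markers of the striatal score.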

How the data were processed

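RNA of the NAcc core from 24 animals had been sequenced as polyA-selected libraries on an Illumina instrument by the authors, aligned to the MacaM assembly with STAR 2.5.2b (unique alignments only) and counted on genes with HTSeq 0.6.1p1. The deposited values are TPM made by the authors (columns sum to 999998 to 1000000), although their name speaks of DESeq2 normalized counts. How counts became TPM is not stated, and the sources disagree on whether libraries were stranded and read from both ends. Depth per sample is unknown, so no counting error is given and no count test was made. Groups, cohorts and intake came from the labels. The 10 genes and all lists were chosen with earlier results of these data known. Every gene of the 10 is named, with the 3 genes most alike to each, and relatives only from fixed lists. limma 3.58.1 in R 4.3.3 was fitted to log2(TPM + 1), with an empirical Bayes trend, 3 groups sharing one spread, the 8 HD* animals alone for VHD against HD, and group as covariate for score slopes. Fits were tested on simulated data. GNAL and PECAM1 of the marker lists were not found by symbol. Replicates are single animals. Alternatives were pseudocounts of 0.1 and 8, a filter of 10 TPM or none, TMM, array weights, covariates, cohort subsets and each animal left out. Exact permutations used scipy 1.17.1. Values of some genes of the lists are not reported here.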

Additional observations from a re-analysis of the deposited data

Results flagged for a closer look

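Of 50 comparisons of an animal with its group (each of the 10 genes in controls, LD, HD*, HD and VHD animals), 2 set an animal apart by Dixon's test, and chance alone sets apart about 1 in 20 groups. Both concern VHD 1. Its FOXP1 was 18.1 TPM, with the other VHD animals at 12.9 to 13.5 TPM, and its RARB was 67.5 TPM, with the others at 36.2 to 41.3 TPM. VHD 1 also had the highest striatal marker score of the 4 VHD animals, 0.01. Without VHD 1 the differences between VHD and HD animals were −1.52 for FOXP1 and −1.15 for RARB, both called.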

How the results depend on the processing

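No paired analysis was possible because the labels give no replicate numbers shared between groups. Between HD* animals and controls no member was called under any of the 36 alternatives, but directions turned. Without the 3 animals of low striatal content the differences were −0.33 for FOXP1, −0.11 for BCL11B, −0.24 for MEIS2, −0.065 for ISL1, −0.11 for EBF1, −0.14 for SP9 and −0.17 for RARB. With the striatal marker score as a covariate they were −0.26 for FOXP1, −0.073 for BCL11B, −0.17 for MEIS2, −0.12 for SP9 and −0.030 for RARB. With cohort as a covariate they were −0.18 for FOXP1, −0.14 for MEIS2, −0.022 for ISL1, −0.091 for SP9 and −0.032 for RARB, and in cohorts 5 and 7a alone −0.26 for FOXP1, −0.056 for BCL11B, −0.13 for MEIS2, −0.028 for SP9, −0.19 for RARB and −0.11 for RXRG. With the oligodendrocyte score they were −0.064 for FOXP1, −0.059 for MEIS2, −0.021 for ISL1 and −0.085 for SP9. FOXP2 turned to 0.018 under array weights and 0.047 under TMM. Leaving out 1 animal gave −0.19 to 0.27 for FOXP1, −0.18 to 0.085 for FOXP2, −0.052 to 0.39 for BCL11B, −0.13 to 0.26 for MEIS2, −0.038 to 0.17 for ISL1, −0.012 to 0.24 for EBF1, −0.089 to 0.12 for SP9 and −0.066 to 0.56 for RARB, with the lowest values of FOXP1, BCL11B, MEIS2, EBF1, SP9 and RARB all seen without control 6. The difference in striatal score was −0.086 (HD* minus control) and −0.25 (LD minus control) without the low animals, and −0.0099 to 0.60, −0.037 to 0.57 and −0.089 to 0.165 (HD* minus LD) when 1 animal was left out.

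Between VHD and HD animals array weights called 7613 genes and 8 members, the striatal score as a covariate 0 and 0, and leaving out VHD 2 4651. Leaving out 1 animal gave 476 to 4651 genes and 3 to 6 members. ISL1 turned to −0.44 and RARB and RXRG to 0.11 and 0.073 with the striatal score, ISL1 to −0.19 without VHD 2, and EBF1 to 0.12 under array weights. Without 1 animal ISL1 ran from −0.19 to 0.31 and EBF1 from −0.34 to 0.041. The striatal slope called 3307 genes in controls alone, and ISL1 turned to −0.022 under array weights. With the cholinergic score it called 10 members, and the share of all genes in that fit is not given here. The cholinergic slope called 256 genes with cohort, 318 without the striatal score, 75 without the low animals and 27 to 2815 without 1 animal. Members called were 0 without the striatal score, 0 under TMM and 0 to 2 without 1 animal. The cholinergic slope with its alternatives, the cholinergic and ribosomal covariates and the leaving out of animals for the striatal score were chosen after seeing the data. The cause was not tested for these changes, except that smaller subsets hold fewer animals. Within each of the 8 left-out fits FOXP1, BCL11B and MEIS2 were lower in VHD animals. Depth is unknown, so the precision of FOXP2, ISL1, ZFHX3 and EBF1, all under 10 TPM on average, cannot be stated from counts.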
